A study of Eucalyptus nitens with 12 samples.

Results

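Low and high KPY cambium were compared at the Meunna trial of Eucalyptus nitens, a eucalypt planted for pulpwood. KPY, kraft pulp yield, is the share of wood recovered as pulp. The comparison held the 6 Meunna libraries of the 12 in the series, taken by their trial and KPY labels: Low_KPY replicates 1 to 3 against High_KPY replicates 1 to 3. The labels give the tissue as xylem, the age of all trees as 20 years and the strain as Low_KPY or High_KPY, and no treatment set the classes apart. Each library was a bulk of RNA from the cambial scrapings of several trees chosen at one extreme of KPY, so the spread within a class is a spread between pools of trees. According to the study, low KPY trees also grew less in diameter, so pulp yield and growth cannot be told apart in these bulks.

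The cambium is the dividing layer beneath the bark that gives rise to wood on its inner side. Newly formed xylem cells expand, lay down a thick secondary wall of cellulose, xylan and lignin, and then die. In Arabidopsis, cellulose synthases 4, 7 and 8 make the cellulose of the secondary wall, NAC and MYB factors switch on the wall genes, sucrose synthase can supply UDP-glucose for cellulose, and microtubules built from tubulin guide the synthase complexes.

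Reads had been counted on 26279 transcripts, of which 21525 carried an E. grandis gene identifier, and these fell on 17982 genes. A gene with more than 1 transcript (2981 genes) was represented by its most counted transcript. Values below are CPM, counts scaled to a common library size after TMM factors were applied, and log2 fold changes are low over high KPY. Total counts ranged from 49489614 to 70097142 in the low KPY bulks and from 75565811 to 89987549 in the high KPY bulks, so library size and KPY class cannot be told apart. The study states fewer reads than the largest of these totals for its deepest Meunna library, so a count may not equal a read, and their relation was not stated. The TMM factors also separated, from 1.0954 to 1.1296 in low KPY and from 0.8574 to 0.9455 in high KPY. No 2 bulks of a class agreed within counting noise, and their log2 CPM correlated from 0.9329 to 0.9685 across transcripts, which are not independent replicates. A set of 13 genes matched the markers chosen for differentiating xylem. Each was read in all high KPY bulks, from 1.45 CPM in a copy of laccase 17 to 3299 CPM in a FASCICLIN-like arabinogalactan protein 12. The laccase 17 copies Eucgr.B02795 and Eucgr.B02438 were read little there, at no more than 3.20 and 7.37 CPM. The counts held only transcripts of at least 1 CPM in 3 libraries, and both copies were under 1 CPM in each low KPY bulk. Their reading in all high KPY bulks was thus set in advance. The other markers had 149.8 CPM or more in each high KPY bulk, so the defining markers of the labelled tissue were present there. All 13 were called lower in low KPY. They were found through names in the study's own lists, whose genes were called lower in 54.0% of cases, against 19.7% of all genes. Of the genes named in its table of this trial 88.4% were called lower, so the 13 falls are not independent evidence of a direction.

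Low KPY cambium had lower transcript levels in 3539 genes and higher levels in 2198 genes, past an FDR of 0.05 in edgeR's quasi-likelihood test. The 5737 genes were 31.9% of all genes, with 19.7% lower and 12.2% higher. Over all transcripts the share was 28.0%, with 16.9% lower and 11.1% higher, and over the 4754 transcripts without a gene identifier it was 15.2%, with 8.48% lower and 6.71% higher. The median called fall was -1.10 and the median called rise 0.98 on the log2 scale. A fall of at least 2-fold was fitted for 2020 of the called genes and a rise of that size for 1060. At 8-fold or more the order turned, with 51 genes lower and 98 higher. In bulk tissue, fewer cells of a type and less RNA per cell cannot be told apart. The classes did not overlap in 9622 genes (53.5%; 49.1% of transcripts), and 4 called genes had overlapping classes.

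The split between lower and higher depended on the scaling. Of all calls 61.7% were lower with TMM factors, 48.2% with upper-quartile factors and 31.4% with library size only. The median log2 fold change of all genes was -0.03 with TMM factors and stood 0.13 higher with upper-quartile factors and 0.30 higher with library size only. Single bulks moved the counts too. Without high KPY bulk 3 there were 2247 lower and 1084 higher genes, without bulk 1 there were 2749 and 1110, and without bulk 2 there were 2456 and 1246. Without low KPY bulk 1 there were 2769 lower and 1438 higher genes.

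**Figure D1:**
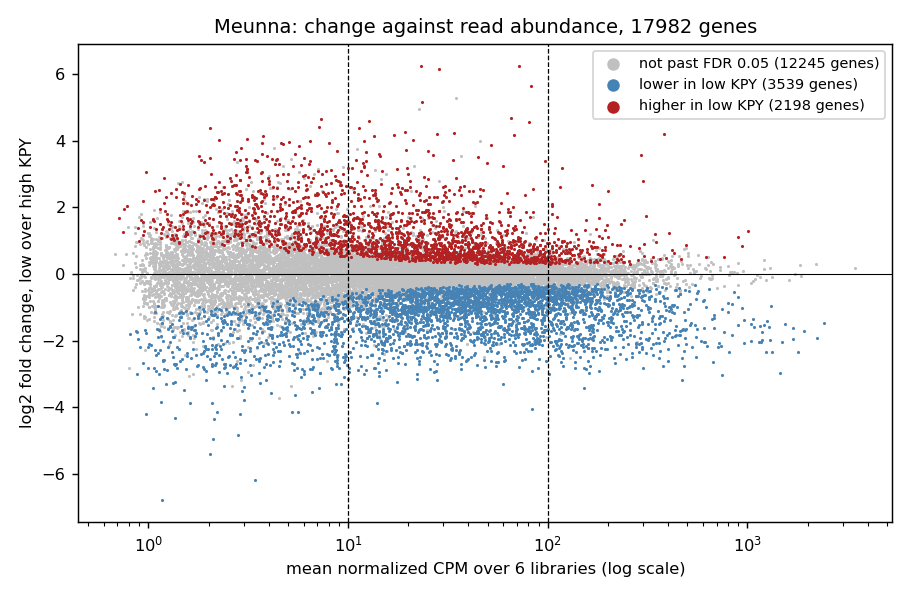
Log2 fold change (low over high KPY) of each of the 17982 genes against its mean normalized CPM over the 6 libraries on a log axis, with genes past FDR 0.05 in blue (3539 lower) and red (2198 higher) and dashed lines at 10 and 100 CPM. To the right of 100 CPM blue points outnumber red ones (816 against 171), while to the left of 10 CPM they are nearly equal (646 against 698).

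Genes were divided by their mean level over the 6 libraries into abundant (at least 100 CPM), moderate (10 to under 100 CPM) and rare (under 10 CPM); these are bands of reads, not of reads per transcript length. The more a gene was read, the more often it was lower in low KPY. Abundant genes were called lower in 37.8% and higher in 7.93% of 2156. Moderate genes were called lower in 22.0% and higher in 14.1% of 9458. Rare genes were called lower in 10.1% and higher in 11.0% of 6368. The classes did not overlap in 65.1% of abundant, 58.4% of moderate and 42.4% of rare genes. Precision differed along this scale: the median SE of a log2 fold change was 0.13 in abundant, 0.16 in moderate and 0.34 in rare genes, whose median counts per library were 11253, 2086 and 242. The smallest called fall was 0.29 on the log2 scale among abundant and 0.60 among rare genes.

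When genes were ordered by mean CPM and cut into 10 equal groups, the share called lower was greater at each step, from 8.67% in the lowest group (0.683 to 2.23 CPM) to 39.4% in the highest (114 to 3473 CPM). The share called higher had no such course. It was 7.17% in the lowest group, peaked at 15.6% in the group from 28.5 to 42.1 CPM and was 7.67% in the highest. Low calling at the bottom of the scale, where precision was least, was thus shared by both directions, and at the top only the falls were frequent.

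**Figure D2:**
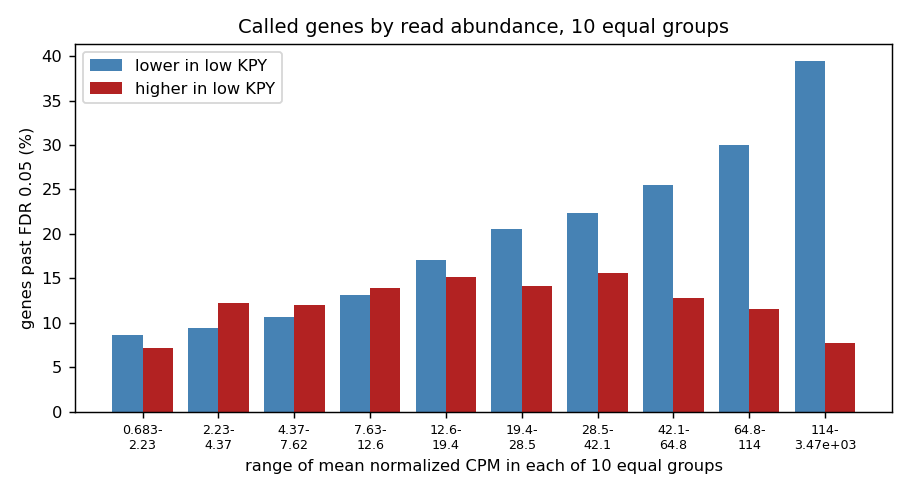
Share of genes past FDR 0.05 (in percent) that were lower (blue) or higher (red) in low KPY, in 10 equal groups of genes ordered by mean normalized CPM, with the CPM range of each group under its bars. The blue bars climb from 8.67% to 39.4%, and the red bars stay between 7.17% and 15.6%.

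The share of library counts also moved between bands. Abundant genes held 51.2%, 51.5% and 52.1% of the counts in high KPY bulks 1 to 3 and 46.8%, 46.2% and 45.7% in low KPY bulks 1 to 3. Moderate genes held from 33.0% to 33.5% in high KPY and from 37.0% to 38.4% in low KPY. Rare genes held from 2.40% to 2.58% in high KPY and from 3.02% to 3.25% in low KPY. None of these ranges overlapped. Summed over the called falls, mean CPM dropped by 239404, and 73.4% of this came from abundant genes. The called rises added 49780 CPM, of which 56.6% came from moderate genes. The excess of the summed falls depends on the TMM factors, which raised CPM in high KPY and lowered it in low KPY. With library size only, CPM has the same total in every bulk, and the calls were 2351 lower and 5126 higher.

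Abundant genes called lower outnumbered those called higher by 816 to 171, so 82.7% of the 987 calls (45.8% of the band) were falls. Their median log2 fold change was -0.22, and in the 9 pairings of a low with a high KPY bulk the band's median lay between -0.29 and -0.16. Falls were moderate in size, with 422 of at least 2-fold, 119 of at least 4-fold and 4 of at least 8-fold. Rises were mostly small, with 34 of at least 2-fold. Library size only evened this band, with 562 falls and 575 rises, and turned its median to 0.08. Leaving out high KPY bulk 1, 2 or 3 left 83, 101 or 85 rises.

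Of the 20 most counted genes 12 were called lower, none higher (nor at an unadjusted p under 0.05) and 8 were not called, with log2 fold changes from -2.98 to 0.30. The 12 hold tubulins, a sucrose synthase, a cellulose synthase, aquaporins and enzymes that supply and use methyl groups. S-adenosylmethionine synthetase 2 (Eucgr.A01021), which makes the methyl donor of lignin monomers, had 2873, 2725 and 3163 CPM in high KPY bulks 1 to 3 and 1148, 703 and 842 CPM in low KPY bulks 1 to 3. O-methyltransferase 1 (Eucgr.A01397), whose Arabidopsis match methylates lignin precursors, had from 2120 to 2391 CPM in high KPY and from 779 to 839 CPM in low KPY. The classes were far apart in both genes, and the log2 fold changes were -1.70 (SE 0.20) and -1.51 (SE 0.12). Methionine synthase is the Arabidopsis role of cobalamin-independent synthases, and Eucgr.A02126 of that family fell by 2.04 (SE 0.27). The most counted gene of all, Eucgr.J01957, has no name in the sources used. It ranged from 2513 to 3634 CPM in high KPY and from 2220 to 5524 CPM in low KPY, with low KPY bulks at both ends of the range.

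The largest abundant falls were in wall proteins. FASCICLIN-like arabinogalactan-protein 11 (Eucgr.J00937), a cell surface protein tied to secondary walls in Arabidopsis, had 243, 323 and 267 CPM in high KPY bulks 1 to 3 and 59.9, 5.37 and 11.9 CPM in low KPY bulks 1 to 3. The classes were well apart, yet low KPY bulk 1 held several times the level of the other 2. Its log2 fold change was -3.43 (SE 0.86, adjusted p = 0.027, edgeR), and the call was lost without high KPY bulk 1, 2 or 3 or low KPY bulk 3, at adjusted p of 0.058, 0.064, 0.066 and 0.081. SKU5 similar 17 (Eucgr.I00988), of a family of multicopper oxidase-like wall proteins, had 582, 696 and 1265 CPM in high KPY and 168, 25.0 and 84.6 CPM in low KPY. It fell by 3.19 (SE 0.69), and was not called without high KPY bulk 3 or low KPY bulk 3 (adjusted p of 0.051 and 0.062). FASCICLIN-like arabinogalactan-protein 12 (Eucgr.J00938) had from 1203 to 1520 CPM in high KPY and 286, 114 and 86.3 CPM in low KPY. This fall, of 3.04 (SE 0.46), was called whichever bulk was left out.

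Few abundant genes rose by as much. Eucgr.I02395, without a name, had 15.8, 60.9 and 41.3 CPM in high KPY bulks 1 to 3 and 636, 660 and 871 CPM in low KPY bulks 1 to 3, a log2 fold change of 4.20 (SE 0.50). CAP160 protein (Eucgr.A02790), named for a protein that spinach makes in the cold and drought, had 33.2, 75.3 and 27.1 CPM in high KPY and 545, 455 and 630 CPM in low KPY. It rose by 3.59 (SE 0.42) on the log2 scale. Both genes were low in each high KPY bulk and several times higher in each low KPY bulk. Eucgr.B03068, without a name, had 32.8, 30.1 and 6.95 CPM in high KPY and 226, 289 and 123 CPM in low KPY, and its log2 fold change was 3.19 (SE 0.62).

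Other abundant rises are named here after their values were seen. Metallothionein 2A (Eucgr.B02368), of a family of metal-binding peptides, had from 48.3 to 69.5 CPM in high KPY and 577, 240 and 207 CPM in low KPY bulks 1 to 3, with bulk 1 highest. The kinase Eucgr.A00714, matching with no lysine (K) kinase 5, rose by 2.66 (SE 0.31), and H(+)-ATPase 8 (Eucgr.B00400), a proton pump, by 1.81 (SE 0.23). Starch branching enzyme 2.1 (Eucgr.F01770), which adds branches to starch, had from 69.8 to 126 CPM in high KPY and from 241 to 340 CPM in low KPY, a log2 fold change of 1.48 (SE 0.25). All 4 genes had classes that did not overlap and were called whichever bulk was left out.

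**Figure D3:**
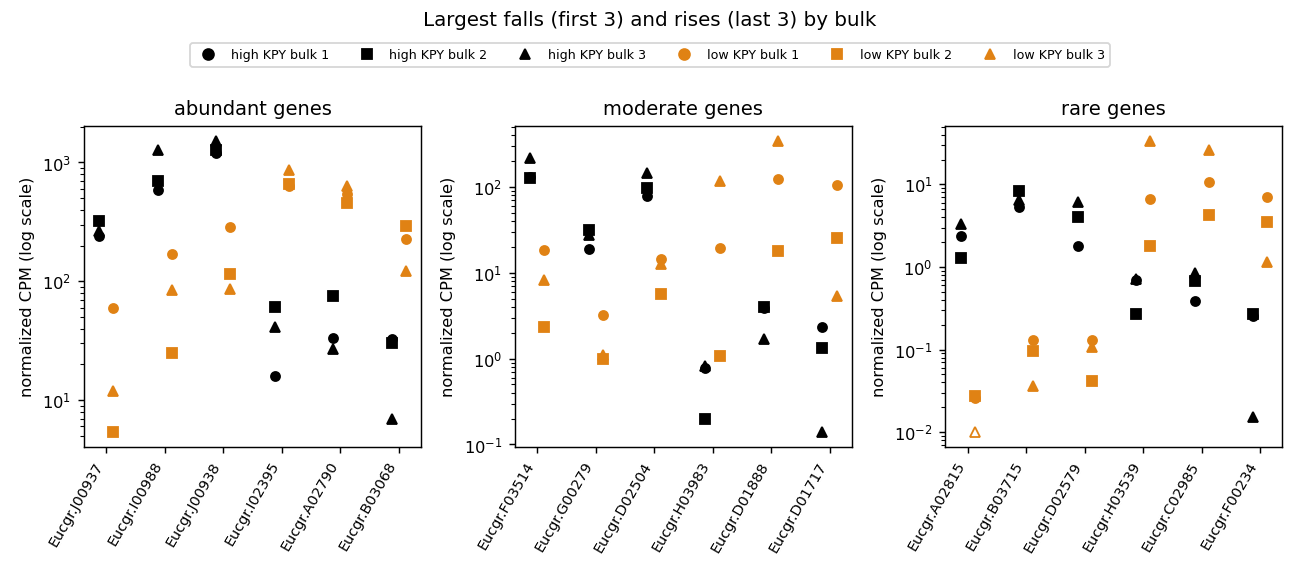
Normalized CPM on log axes of the 3 largest called falls and 3 largest called rises among abundant, moderate and rare genes whose classes did not overlap, with high KPY bulks in black and low KPY bulks in orange, and circles, squares and triangles for bulks 1, 2 and 3; the open triangle marks a count of 0, drawn at 0.01 CPM. The choice of genes fixes the gap between classes, and the low KPY bulks spread far more in the moderate rises Eucgr.H03983, Eucgr.D01888 and Eucgr.D01717 than the high KPY bulks do in the falls. Wide spreads are also seen in the high KPY bulks of Eucgr.D01717 (0.139 to 2.31 CPM) and the low KPY bulks of the fall Eucgr.J00937 (5.37 to 59.9 CPM).

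Moderate genes moved both ways, with 2077 called lower and 1329 called higher (36.0% of the band). The median was -0.03, and the 9 pairings gave from -0.10 to 0.01. The large changes were unequal, with 198 falls and 127 rises of at least 4-fold but 8 falls and 40 rises of at least 8-fold. With upper-quartile factors there were 1721 falls and 1984 rises, and with library size only 1305 and 3228. Leaving out high KPY bulk 3 left 1312 falls and 673 rises, and leaving out high KPY bulk 1, high KPY bulk 2 or low KPY bulk 1 left 646, 782 or 885 rises.

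The moderate genes that fell most were low in all of the low KPY bulks. A lipid-transfer family protein (Eucgr.F03514) had 129, 126 and 219 CPM in high KPY and 18.2, 2.36 and 8.16 CPM in low KPY, a log2 fold change of -4.04 (SE 0.72). Eucgr.G00279, of the dirigent family whose founding members steer the coupling of monolignols, had 19.1, 31.7 and 27.4 CPM in high KPY and 3.22, 0.999 and 1.11 CPM in low KPY. It fell by 3.87 (SE 0.52). A matrixin (Eucgr.D02504), a metal-dependent protease, had from 78.6 to 147 CPM in high KPY and from 5.71 to 14.5 CPM in low KPY, and fell by 3.29 (SE 0.41). In each of the 3 genes low KPY bulk 1 was the highest and bulk 2 the lowest of its class. The order 1, 3, 2 was met in 675 of all 2077 moderate falls. Each of the 3 genes was called whichever bulk was left out.

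The moderate genes that rose most with classes apart were uneven among the low KPY bulks. The rise fitted for Eucgr.K02166, 6.26, was the second largest of the band, but its classes overlapped and it is described with the single bulks. Eucgr.H03983, without a name, had from 0.196 to 0.818 CPM in high KPY and 19.7, 1.07 and 116 CPM in low KPY bulks 1 to 3, so that low KPY bulk 2 lay just above the high KPY class. With under 1 CPM in each high KPY bulk, the gene could pass the filter of 1 CPM in 3 libraries only through low KPY. That its classes lay apart was thus set in advance. Its fitted log2 fold change of 6.26 (SE 1.63) was called only as long as no bulk other than low KPY bulk 2 was left out, with adjusted p from 0.051 to 0.095 without the others. Osmotin 34 (Eucgr.D01888), a thaumatin-like protein made under salt and pathogen stress, had 3.84, 4.01 and 1.68 CPM in high KPY and 122, 17.8 and 344 CPM in low KPY. It rose by 5.66 (SE 1.09, adjusted p = 0.012) and was called whichever bulk was left out. Eucgr.D01717, without a name, had 2.31, 1.32 and 0.139 CPM in high KPY and 107, 25.5 and 5.37 CPM in low KPY. Here low KPY bulk 1 was the highest and bulk 3 the lowest, and the rise of 5.17 (SE 1.33) was not called without high KPY bulk 1, 2 or 3 or low KPY bulk 1, at adjusted p of 0.061, 0.087, 0.072 and 0.074.

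Rare genes were called in 1344 cases (21.1% of the band), 646 lower and 698 higher, with a median log2 fold change of 0.07 over the band. Small changes were seldom called here, and 89.3% of the called falls and 81.7% of the called rises were of at least 2-fold. At 8-fold or more there were 39 falls and 55 rises. Leaving out high KPY bulk 1, 2 or 3 left 421, 420 or 324 falls and 381, 363 or 326 rises, and leaving out low KPY bulk 1 left 434 rises. Upper-quartile factors gave 568 falls and 914 rises, and library size only 484 and 1323. The falls made up a smaller share of the calls among rare than among moderate genes, and among moderate than among abundant genes, with TMM factors and under each of the 14 alternatives.

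The deepest rare falls were genes all but lost from low KPY reads. All were under 1 CPM in each low KPY bulk, so the filter of 1 CPM in 3 libraries admitted them only through high KPY. Their presence in all high KPY bulks was thus set in advance. Lon protease 2 (Eucgr.A02815), a protease of peroxisomes in Arabidopsis, had 2.41, 1.28 and 3.32 CPM in high KPY bulks and 4 counts in all in the low KPY bulks. A gibberellin-regulated family gene (Eucgr.B03715) had 5.35, 8.43 and 6.53 CPM in high KPY and 0.130, 0.0971 and 0.0358 CPM in low KPY. Eucgr.D02579, annotated as an unknown protein, had 1.78, 4.02 and 6.16 CPM in high KPY and 0.130, 0.0416 and 0.107 CPM in low KPY. For the latter pair 19 counts each remained in low KPY, and the ratio of high to low KPY was 73.7 (95% interval 47.0 to 123) and 42.0 (26.7 to 70.1), intervals that cover counting error only.

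The largest rare rises stayed under 34 CPM. All were under 1 CPM in each high KPY bulk, so the filter admitted them only through low KPY, and their presence in all low KPY bulks was set in advance. A leucine-rich repeat kinase (Eucgr.C02985), of a family with many receptors, had 0.392, 0.675 and 0.849 CPM in high KPY and 10.6, 4.31 and 25.8 CPM in low KPY, a log2 fold change of 4.41 (SE 0.72). The unnamed Eucgr.H03539 had from 0.270 to 0.710 CPM in high KPY and 6.66, 1.82 and 33.7 CPM in low KPY. The low KPY bulks of both genes stood in the order 3, 1, 2 from high to low, the order of osmotin 34. That order was met in 136 of all 698 rare rises. Eucgr.H03539 rose by 4.65 (SE 1.12) and was not called without high KPY bulk 1, 2 or 3, at adjusted p of 0.070, 0.076 and 0.076. For the unnamed Eucgr.F00234 the high KPY bulks summed to 42 counts and the low KPY bulks to 856, a ratio of low to high of 21.9 (95% interval 16.1 to 30.6, counting error only). Its 6.98, 3.54 and 1.16 CPM in low KPY stood in the order 1, 2, 3, and its call was lost without high KPY bulk 1 or 2 or low KPY bulk 1, at adjusted p of 0.055, 0.052 and 0.051.

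Gene families were followed through names for 3577 of the 17982 genes, taken from the study's own lists of genes it had called or tested, so that they are not independent evidence of a direction. Of the named genes 54.0% were called lower and 13.5% higher, against 11.2% and 11.9% of the 14405 without a name. Of the study's table of this trial only a part gave names here, and that part holds falls (below, the table of falls). The study also called rises at this trial. Of the 1502 genes in that part 88.4% were called lower here and none higher. Of the 2491 genes named in the table of the other trial or in that of allele differences (below, genes named elsewhere), 41.1% were lower and 18.6% higher. For each family the count among members named elsewhere is therefore given too, to be read against these 41.1% and 18.6%. Genes named elsewhere can also stand in the table of falls, so they are not a separate set. Of the 680 genes named only in the table of allele differences 29.1% were lower and 6.47% higher. The median of all genes was -0.03.

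Wall building families were mostly lower in low KPY. Of the 86 genes in the lists for cellulose synthases, FASCICLIN-like arabinogalactan proteins, COBRA-like proteins, xylan and pectin synthesis, lignin enzymes and laccases, sucrose synthases and tubulins, 77 were called lower, 1 higher and 8 were not called, with a median of -1.95. The table of falls listed 67 of the 86, and of the 55 named elsewhere 49 were lower and 1 higher. Together the 86 took 3.57%, 3.83% and 4.27% of library counts in high KPY bulks 1 to 3 and 1.56%, 1.01% and 1.32% in low KPY bulks 1 to 3. The lowest high KPY bulk thus gave these genes more than 2 times the share of the highest low KPY bulk.

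Among 16 cellulose synthases and relatives 15 were lower (all 9 named elsewhere), with a median of -1.47. Eucgr.C00246, the match of Arabidopsis cellulose synthase 7, had 2001, 2200 and 2437 CPM in high KPY and 517, 338 and 456 CPM in low KPY. Cellulose synthase A4 (Eucgr.A01324) had 1767, 2142 and 2276 CPM in high KPY and 534, 299 and 397 CPM in low KPY, and Eucgr.D00476, the match of cellulose synthase 8, ranged from 1183 to 1534 CPM and from 197 to 314 CPM. In these 3 synthases of the secondary wall the low KPY bulks stood in the order 1, 3, 2 from high to low. That order was met in 1236 of all 3539 called falls. The 3 synthases were alike in size of change, at -2.34 (SE 0.19), -2.33 (SE 0.24) and -2.35 (SE 0.21). Matches of the primary wall synthases 1, 2 and 3 of Arabidopsis, named here after their values were seen, were less uniform, with values on both sides of these. Synthase 2 matches were at -2.53 (Eucgr.F04217) and -1.12 (Eucgr.I00286), and synthase 3 matches at -0.77 (Eucgr.C01769), -1.07 (Eucgr.G03380) and -2.62 (Eucgr.A02372). Synthase 1 matches were at -1.06 (Eucgr.C01147), -1.19 (Eucgr.H00939), -0.59 (Eucgr.C02801) and -0.44 (Eucgr.J01639, not called). Some of these calls did not hold in every fit without 1 bulk. That of Eucgr.C02801 was lost without high KPY bulk 2 or 3 or low KPY bulk 1 or 2, at adjusted p of 0.086, 0.097, 0.097 and 0.075. That of Eucgr.H00939 was lost without high KPY bulk 1 or 3 or low KPY bulk 1 or 3, at 0.076, 0.066, 0.087 and 0.084, and that of Eucgr.A02372 without low KPY bulk 3, at 0.052.

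All 10 FASCICLIN-like arabinogalactan proteins fell (8 of them named elsewhere), with a median of -2.28. Low KPY bulk 1 was the highest of its class in all 10, and in 1835 of all 3539 called falls. The most counted member, Eucgr.B02486, had 2113, 2364 and 3299 CPM in high KPY and 525, 171 and 292 CPM in low KPY. Its log2 fold change was -2.98 (SE 0.43). Of 7 COBRA-like proteins, which in Arabidopsis act in cellulose deposition, 5 fell and 2 were not called (3 lower of 4 named elsewhere). COBRA-like protein 2 (Eucgr.K02540) had from 1024 to 1327 CPM in high KPY and from 236 to 329 CPM in low KPY, and Eucgr.J01392 had from 413 to 542 CPM and from 59.7 to 118 CPM. The falls were 2.16 (SE 0.19) and 2.34 (SE 0.27) on the log2 scale.

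All 10 genes of xylan and pectin backbone synthesis fell (7 of them named elsewhere), with a median of -1.67. UDP-XYL synthase 6 (Eucgr.J00040), which makes the xylose donor, had 576, 753 and 795 CPM in high KPY and 244, 163 and 240 CPM in low KPY. Galacturonosyltransferase 12 (Eucgr.F00995), needed for normal xylan in Arabidopsis, had 727, 700 and 641 CPM in high KPY and 250, 175 and 153 CPM in low KPY. They fell by 1.72 (SE 0.21) and 1.84 (SE 0.20).

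Of 19 lignin enzymes and laccases 14 fell, 1 rose and 4 were not called, with a median of -1.89. Of the 12 named elsewhere 8 were lower and 1 higher. Ferulic acid 5-hydroxylase 1 (Eucgr.J02393), which directs monomers towards syringyl lignin, had 1361, 1674 and 1650 CPM in high KPY and 507, 281 and 320 CPM in low KPY. Cinnamate-4-hydroxylase (Eucgr.J01844), an early step of the phenylpropanoid path, had 1056, 1013 and 1030 CPM in high KPY and 397, 273 and 332 CPM in low KPY. The falls of 2.08 (SE 0.25) and 1.63 (SE 0.16) were both far beyond the spread of the bulks. Laccases, which oxidise monolignols in the wall, held the extremes: laccase 17 (Eucgr.B02438) fell by 3.78 (SE 0.66) from a mean of 5.60 CPM, and laccase 14 (Eucgr.B01307) rose by 3.56 (SE 0.86) to a mean of 3.32 CPM. Each was under 1 CPM in all bulks of the other class, so each could pass the filter only through the class where it was higher. The rise of laccase 14 was not called without high KPY bulk 2 or 3 or low KPY bulk 1 or 2, at adjusted p of 0.079, 0.062, 0.066 and 0.053.

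Sucrose synthases split into 11 falls and 1 abundant gene that was not called, and of the 5 named elsewhere 4 were lower. Sucrose synthase 1 (Eucgr.C03199) had 2103, 3104 and 3730 CPM in high KPY and 755, 314 and 684 CPM in low KPY, a log2 fold change of -2.35 (SE 0.38). Sucrose synthase 3 (Eucgr.H01094) had 644, 533 and 711 CPM in high KPY and 711, 496 and 801 CPM in low KPY, so that its classes overlapped (0.09, SE 0.20, adjusted p = 0.77). The 11 falls lay between -2.83 and -2.31 from genes of 2979 CPM to genes of 2.25 CPM in high KPY. Some of the less counted genes may be near-identical copies that share reads, so their values are uncertain.

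All 12 tubulins fell (10 of them named elsewhere), with a median of -1.91, and 11 of them were abundant. The alpha-tubulin match Eucgr.F00470 had 3173, 3355 and 4196 CPM in high KPY and 1524, 1187 and 1144 CPM in low KPY, and tubulin beta 8 (Eucgr.K00264) had 2282, 2645 and 3178 CPM and 785, 562 and 735 CPM. The changes were -1.48 (SE 0.18) and -1.96 (SE 0.19), and over the family they ran from -2.65 to -0.99. Tubulin copies can share reads as well.

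**Figure D4:**
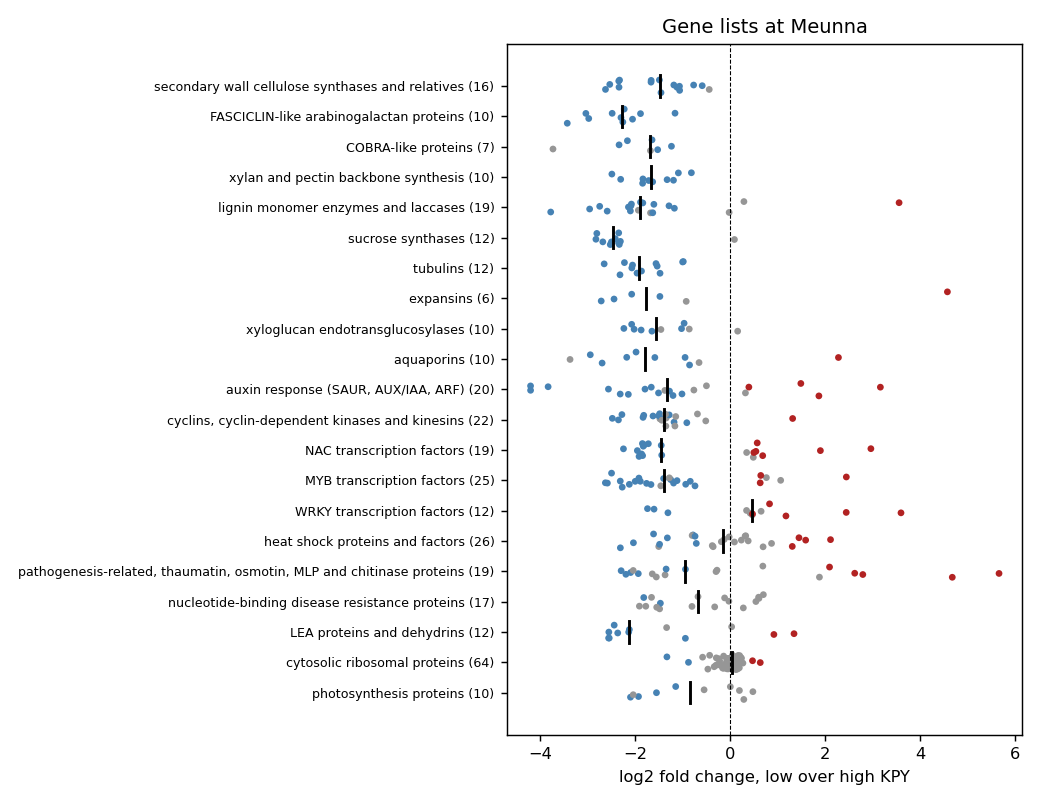
Log2 fold change (low over high KPY) of each member of the gene lists, 1 row per list with its number of members in brackets; blue points are called lower, red points called higher, grey points not called, and the black bar is the median. Wall lists lie to the left of 0 almost whole, the 64 ribosomal proteins cluster at 0 (median 0.04), and the WRKY list is the only one of those with more than 1 member and a median above 0.2 (0.47).

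Expansins loosen growing walls. Of 6 such genes 4 fell (3 lower and 1 higher of the 5 named elsewhere), and expansin A6 (Eucgr.B02355) had 333, 439 and 656 CPM in high KPY and 172, 79.3 and 88.1 CPM in low KPY. Expansin A13 (Eucgr.C02271) went the other way, from 8.59, 8.21 and 2.61 CPM in high KPY to 217, 104 and 142 CPM in low KPY. Their log2 fold changes were -2.07 (SE 0.38) and 4.57 (SE 0.53), and neither call depended on a single bulk. Of 10 xyloglucan endotransglucosylases, which cut and rejoin xyloglucan chains, 7 fell and 3 were not called (5 lower of 7 named elsewhere). XTH 9 (Eucgr.K00883) had 1366, 1444 and 2184 CPM in high KPY and 660, 275 and 295 CPM in low KPY, and endoxyloglucan transferase A3 (Eucgr.B02660) fell by 1.87 (SE 0.23).

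Of 10 aquaporins, which carry water across membranes, 7 fell, 1 rose and 2 were not called (4 lower and 1 higher of the 6 named elsewhere). The most counted, plasma membrane intrinsic protein 2 (Eucgr.J00930), had from 1679 to 1757 CPM in high KPY and from 818 to 1002 CPM in low KPY. Plasma membrane intrinsic protein 1C (Eucgr.D01836) had from 1773 to 2538 CPM and from 382 to 685 CPM. They fell by 0.95 (SE 0.13) and 1.98 (SE 0.26), while NOD26-like intrinsic protein 1 (Eucgr.D00423) rose by 2.28 (SE 0.36) from a mean of 3.82 to one of 18.6 CPM.

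Of 22 cyclins, cyclin-dependent kinases and kinesins 12 fell, 1 rose and 9 were not called, with a median of -1.40. Of the 8 named elsewhere 3 were lower and 1 higher, which is near the shares for all such genes. A kinesin motor (Eucgr.I01311) had 358, 394 and 455 CPM in high KPY and 131, 71.0 and 137 CPM in low KPY, and kinesin 2 (Eucgr.F03419) fell by 1.82 (SE 0.23). Low KPY bulk 2 was the lowest of its class in 20 of these 22 genes, and in 2219 of all 3539 called falls. In 7 of the 22 it stood over 1 log2 unit below both others, themselves within 0.5.

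Auxin response genes were mixed, with 12 of 20 lower and 4 higher. The table of falls listed 10 of them, and of the 11 named elsewhere 4 were lower and 4 higher. SAUR genes, small transcripts induced by auxin, held most of the falls; Eucgr.A01420, the most counted of them, went from 189, 210 and 223 CPM to 76.5, 69.0 and 51.1 CPM, a change of -1.66 (SE 0.17). Another SAUR (Eucgr.B03532) rose by 3.16 (SE 0.32), from 3.82, 4.76 and 2.02 CPM in high KPY to 34.5, 30.6 and 30.0 CPM in low KPY. The AUX/IAA repressor Eucgr.H04335 had from 268 to 294 CPM in high KPY and from 338 to 402 CPM in low KPY, a rise of 0.39 (SE 0.11) that was called only with the full set or without low KPY bulk 3. Without any other bulk its adjusted p ran from 0.068 to 0.115.

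Of 19 NAC factors 11 fell and 6 rose. The table of falls listed 11 of the 19, and the balance turned among the 10 named elsewhere, with 3 lower and 5 higher. The falls include the wall regulators of Arabidopsis: NAC domain containing protein 12 (Eucgr.E01053, SND1) had 182, 207 and 181 CPM in high KPY and 59.1, 42.5 and 57.0 CPM in low KPY, and NAC domain protein 66 (Eucgr.D01671) had 222, 232 and 257 CPM and 75.7, 42.9 and 64.6 CPM. They fell by 1.85 (SE 0.15) and 1.95 (SE 0.21). Vascular related NAC-domain protein 1 (Eucgr.I02366), a vessel regulator, fell by 1.72 (SE 0.11) with classes that were tight at 104 to 109 CPM and 29.3 to 36.1 CPM. The most counted NAC gene, NAC transcription factor-like 9 (Eucgr.E01095), rose by 0.54 (SE 0.15), a call lost without high KPY bulk 1 or 3 or low KPY bulk 2 or 3, at adjusted p of 0.093, 0.101, 0.062 and 0.053. Other rises of the list were no firmer. Eucgr.B03823 lost its call whichever bulk was left out, and Eucgr.A00494 and Eucgr.A00969 lost theirs without high KPY bulk 1, 2 or 3. Among the falls, Eucgr.D02027 and Eucgr.L02268 lost their calls in some of these fits. NAC domain containing protein 100 (Eucgr.B00529) had the largest rise, 2.96 (SE 0.42).

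Of 25 MYB factors 18 fell, 3 rose and 4 were not called (9 lower and 3 higher of the 15 named elsewhere). MYB domain protein 46 (Eucgr.B03684), a switch for secondary wall genes in Arabidopsis, had 150, 158 and 200 CPM in high KPY and 56.3, 36.4 and 57.1 CPM in low KPY. MYB domain protein 4 (Eucgr.G01774), a repressor of phenylpropanoid genes, had 222, 215 and 277 CPM in high KPY and 82.1, 44.8 and 51.8 CPM in low KPY. They fell by 1.76 (SE 0.21) and 2.00 (SE 0.25).

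Of 12 WRKY factors 3 fell, 5 rose and 4 were not called, with a median of 0.47. Of the 9 named elsewhere 1 was lower and 4 higher. The 2 most counted changed little: WRKY 32 (Eucgr.C00348) had from 121 to 225 CPM in high KPY and from 182 to 308 CPM in low KPY, which overlapped, and WRKY 21 (Eucgr.B01503) rose by 0.47 (SE 0.09). The call of WRKY 21 was lost without high KPY bulk 1 or 2 (adjusted p of 0.051 and 0.052). The larger rises were in factors that act in defence and wounding in Arabidopsis. WRKY 40 (Eucgr.F03955) had 1.92, 3.36 and 1.27 CPM in high KPY and 36.9, 5.24 and 37.2 CPM in low KPY, and WRKY 33 (Eucgr.B04010) had 4.30, 6.49 and 1.93 CPM and 22.7, 11.9 and 34.7 CPM. Low KPY bulk 2 was nearest to the high KPY class in both. The rises were 3.60 (SE 0.78) and 2.44 (SE 0.54), and they were not called without high KPY bulk 1 or 3 (0.061 and 0.063) for WRKY 40, nor without high KPY bulk 1 or low KPY bulk 3 (0.060 and 0.052) for WRKY 33.

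Pathogenesis-related, thaumatin, MLP and chitinase proteins split into 6 falls, 5 rises and 8 genes not called. The table of falls listed 8 of them, and of the 12 named elsewhere 2 were lower and 5 higher. The falls were led in level by chitinase-like protein 2 (Eucgr.H04034), an Arabidopsis relative of which acts in cellulose assembly rather than defence, with 3466, 3349 and 3789 CPM in high KPY and 1165, 904 and 706 CPM in low KPY. It fell by 1.93 (SE 0.21), and a second chitinase family gene (Eucgr.H00455) by 0.94 (SE 0.15). Pathogenesis-related 4 (Eucgr.B02122) rose by 4.67 (SE 0.92), from 4.88, 8.16 and 1.74 CPM to 133, 25.4 and 221 CPM. Its low KPY bulks stood in the order of osmotin 34, which was met in 353 of all 2198 called rises. MLP-like protein 423 genes, named for the major latex proteins, rose in 3 copies. The most counted, Eucgr.A00188, had 63.9, 107 and 56.4 CPM in high KPY and 341, 441 and 789 CPM in low KPY. As near copies they may share reads.

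Heat shock proteins and factors were called lower in 8 and higher in 4 of 26 genes, and 14 were not called; with library size only 6 were called in each direction. Of the 21 named elsewhere 4 were lower and 4 higher. The 2 most counted did not separate the classes: heat shock protein 70 (Eucgr.J00025) had from 1525 to 1956 CPM in high KPY and from 1165 to 1711 CPM in low KPY, and heat shock protein 81-2 (Eucgr.F03673) had from 747 to 866 CPM and from 707 to 917 CPM. Their log2 fold changes were -0.19 (SE 0.19) and -0.02 (SE 0.14), the signs of which turned with library size only (0.12 and 0.28). Among the heat shock factors both directions were met: heat shock transcription factor A9 (Eucgr.C00873) rose by 2.11 (SE 0.24) and factor A2 (Eucgr.C03431) fell by 1.49 (SE 0.28).

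Late embryogenesis abundant proteins and dehydrins, many of which protect cells in drought, fell in 8 of 12 genes and rose in 2 (3 lower and 1 higher of the 5 named elsewhere). The most counted, Eucgr.C00653, is annotated only as resembling this family and had 331, 425 and 504 CPM in high KPY and 95.5, 64.1 and 54.4 CPM in low KPY. It fell by 2.56 (SE 0.26). A group 2 member (Eucgr.H00245) fell by 0.94 (SE 0.21), and its adjusted p was 0.052 without high KPY bulk 3. Nucleotide-binding disease resistance proteins, intracellular receptors of pathogens, were not called in 15 of 17, nor in any of the 10 named elsewhere. The most counted 2, Eucgr.H03401 and Eucgr.H02490, had log2 fold changes of -0.03 (SE 0.29) and -1.55 (SE 0.49, adjusted p = 0.056).

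Ribosomal proteins were the steadiest list. Of 64 genes 60 were not called, 2 fell and 2 rose, with a median of 0.04 (63 were named elsewhere), and their summed level was 14010, 14900 and 15170 CPM in high KPY bulks 1 to 3 and 14680, 13720 and 15320 CPM in low KPY bulks 1 to 3. Ribosomal protein S8 (Eucgr.G02917) had from 573 to 611 CPM in high KPY and from 633 to 665 CPM in low KPY, which did not overlap but differed by only 0.14 (SE 0.10). Eucgr.F01462, of the elongation factor G family and not a ribosomal subunit, was at -0.43 (SE 0.16, adjusted p = 0.084). With library size only 18 of the 64 were called higher, and the list's median was 0.34, close to the 0.27 of all genes under that scaling.

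No marker of the other tissues that a scraping could hold was called higher in low KPY with TMM factors. Of 10 photosynthesis genes 4 fell and 6 were not called (4 and 2 called lower and higher with library size only; 2 lower of the 8 named elsewhere), and their summed level was 280, 279 and 344 CPM in high KPY and 197, 170 and 162 CPM in low KPY. Photosystem II protein D (Eucgr.B00592) fell by 1.55 (SE 0.16), and photosystem I subunit P (Eucgr.E00015) by 1.15 (SE 0.25) with an adjusted p of 0.055 without low KPY bulk 3. The only phloem protein with a name, Eucgr.B01904, was between 0.153 and 3.44 CPM in all bulks and fell by 2.69 (SE 0.60), with an adjusted p of 0.059 without high KPY bulk 3 and 0.066 without low KPY bulk 1. At under 1 CPM in each low KPY bulk, this gene could pass the filter only through high KPY. No suberin enzyme had a name. The table of falls had listed 4 of the 10 photosynthesis genes and the 1 phloem gene. None of the genes in that table was called higher here, so the lack of rises among these markers was partly set by the naming. The part of other tissues in the falls above was not tested.

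The single bulks differed from their own class by unequal amounts. The root mean square deviation of a bulk from the mean of the other 2 of its class was smallest in high KPY bulk 2 (0.453 log2 units over all genes) and largest in low KPY bulk 2 (0.699). It was 0.492 and 0.595 in high KPY bulks 1 and 3 and 0.531 and 0.625 in low KPY bulks 1 and 3. The median SD over genes was likewise 0.19 in high KPY and 0.24 in low KPY. Within each bulk the deviation was smallest in abundant genes, from 0.178 to 0.446, and largest in rare genes, from 0.650 to 0.935, where counting error is also largest.

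High KPY bulk 3 and low KPY bulk 2 lay at the outside of the 2 classes. High KPY bulk 3 was the highest of the 6 bulks in 5944 genes and the lowest in 4404, and low KPY bulk 2 was the highest in 4148 and the lowest in 4803; high KPY bulk 2 was the highest in 1296 and the lowest in 1190. Of the 3539 genes called lower, high KPY bulk 3 was the highest of its class in 2841 and low KPY bulk 2 the lowest of its class in 2219. Of the 2198 genes called higher, high KPY bulk 3 was the lowest of its class in 1501 and low KPY bulk 2 the highest in 949. Most called genes thus had high KPY bulk 3 at the end of its class away from low KPY. Among the 12245 genes not called, high KPY bulk 3 was the highest of its class in 5020 and the lowest in 4358. Low KPY bulk 2 was the highest of its class in 4783 of these and the lowest in 4020. Its share of highest places among the rises was thus near that among genes not called. In the 86 wall genes low KPY bulk 1 was the highest of its class in 61 and bulk 2 the lowest in 58. Among all 3539 called falls low KPY bulk 1 was the highest of its class in 1835 and bulk 2 the lowest in 2219. These places were thus common among the falls and not a trait of the wall genes alone.

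The largest rises had no single order. There were 98 genes called higher by at least 8-fold. Low KPY bulk 1 was the highest of its class in 44 of them, bulk 3 in 35 and bulk 2 in 19. The order 1, 2, 3 was met in 31 of the 98 and the order 3, 1, 2 of osmotin 34 in 27. The latter order was met in 353 of all 2198 rises, in 983 of 3539 falls and in 2674 of 12245 genes not called. High KPY bulk 3 was the lowest of its class in 84 of the 98. Low KPY bulk 3 was the smallest library of its class and bulk 1 the largest, and the part of library size in these orders was not tested.

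**Figure D5:**
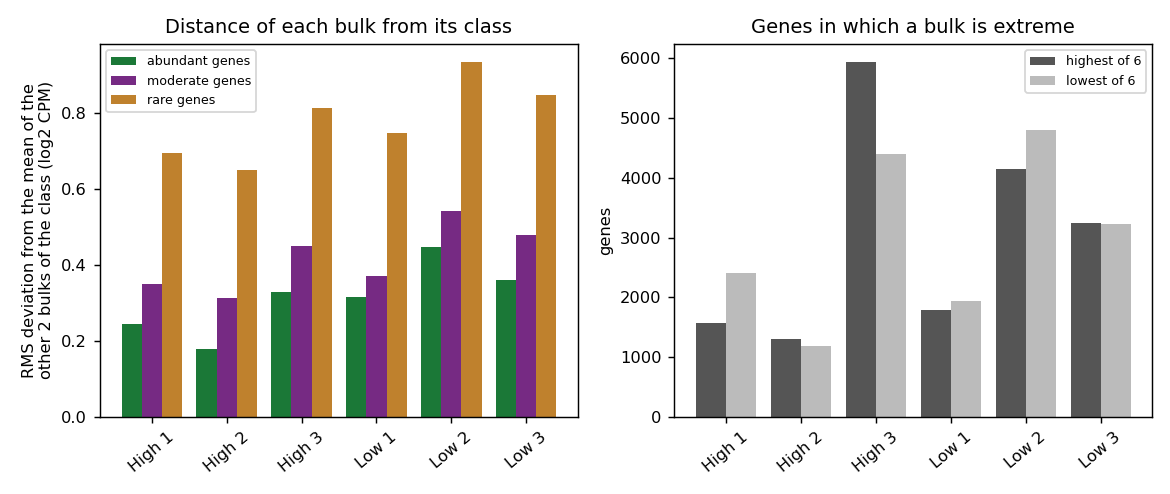
Left, root mean square deviation of each bulk from the mean of the other 2 of its class in log2 CPM, for abundant (green), moderate (purple) and rare (brown) genes; right, number of genes in which each bulk was the highest (dark) or lowest (light) of the 6. Low KPY bulk 2 has the tallest bars on the left in all 3 bands, and high KPY bulk 3 and low KPY bulk 2 have the tallest on the right.

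A bulk was counted as standing apart in a gene where it lay over 1 log2 unit from both others of its class while these lay within 0.5 of each other. This was so in 170, 141 and 485 genes for high KPY bulks 1 to 3 and in 240, 631 and 329 genes for low KPY bulks 1 to 3. Low KPY bulk 2 lay below the others in 472 of its 631 genes and high KPY bulk 3 in 391 of its 485, while high KPY bulk 1 lay above in 125 of 170. Of the 631 genes 33 were abundant and 392 rare.

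Leaving out high KPY bulk 3 lost the most calls, 2448 of 5737, and leaving out low KPY bulk 3 the fewest, 1424. The other losses were 1963 and 2099 for high KPY bulks 1 and 2 and 1748 and 1520 for low KPY bulks 1 and 2. Each such fit had 5 libraries in place of 6. No called gene changed sign in any of them. Calls that stayed in all 6 fits were 2048 of the falls (57.9%) and 835 of the rises (38.0%). Among abundant genes they were 575 of 816 falls (70.5%) and 70 of 171 rises (40.9%), and among rare genes 271 of 646 falls (42.0%) and 241 of 698 rises (34.5%).

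A few genes were present or absent bulk by bulk. Eucgr.G01721, without a name, had 23.4 CPM in high KPY bulk 1 and 0.159 and 0.0772 CPM in bulks 2 and 3, against 23.5, 28.9 and 6.01 CPM in low KPY. Eucgr.F01134 was at 0.159 CPM in high KPY bulk 2 and at 37.5 and 29.7 CPM in bulks 1 and 3, and Eucgr.J00089 at 0.154 CPM in high KPY bulk 3 and at 42.3 and 16.7 CPM in bulks 1 and 2. None of the 3 was called. Eucgr.D00499 and Eucgr.D00500, noticed after the values were seen, shared a pattern, with 11.7 and 16.7 CPM in high KPY bulk 1, under 0.5 CPM in the other high KPY bulks and low KPY values in the order 3, 1, 2.

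In low KPY the bulks that stood farthest apart were in genes of the same uneven kind. Eucgr.K02166 had 132, 1.80 and 291 CPM in low KPY bulks 1 to 3 and 3.55, 1.24 and 0.741 CPM in high KPY. Bulk 2 thus lay inside the high KPY range, although the fitted rise of 6.26 (SE 1.66) was called at an adjusted p of 0.032; without any bulk other than low KPY bulk 2 it ran from 0.065 to 0.107. Eucgr.H04010 had 4.74, 1.04 and 126 CPM in low KPY and from 1.28 to 1.66 CPM in high KPY, and was not called (adjusted p = 0.068). Eucgr.J00059, a protein of unknown function, had 6.04, 78.7 and 60.9 CPM in low KPY and from 16.5 to 42.0 CPM in high KPY, with low KPY bulks on both sides.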

How the data were processed

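RNA of cambial scrapings had been sequenced as 6 Meunna bulks. Trimmed reads of the trial were pooled by the authors, aligned to E. grandis by TopHat and Bowtie (genome version not given in the sources used here), assembled into transcripts in Cufflinks, unguided by gene models, and counted per bulk in BEDtools. They deposited whole-number counts, already limited to transcripts of at least 1 CPM in 3 libraries. The other trial was not analysed here.

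Counts were tested in R 4.3.3 with edgeR 4.0.16: TMM factors, glmQLFit and glmQLFTest with KPY class as the only factor, and Benjamini-Hochberg adjustment over 26279 transcripts with a threshold of 0.05. The SE is the log2 fold change divided by the square root of F, and log2 CPM used a prior count of 2. On average 1 CPM stood for 71.5 counts. P-values measure the spread between bulks of different trees. The tests were tried on simulated data. DESeq2 1.42.0, other scalings, edgeR's exact test, a minimum of 5 CPM, summed transcripts, a replicate block and leaving out each bulk were the alternatives.

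The gene lists and the comparison were chosen with earlier results of these data known. Genes were named by a rule: per band the 3 largest called falls and rises with classes apart, per list the 2 most counted members, and per bulk the gene of at least 10 CPM in which it stood farthest from its class; list members beyond these were picked after their values were seen. Names came from annotation columns of the study's supplementary tables, held here in part, whose fold changes and p-values were not used.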

Additional observations from a re-analysis of the deposited data

How the results depend on the processing

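Scaling moved the balance of calls most. With library size only there were 2351 lower and 5126 higher genes, 575 abundant, 3228 moderate and 1323 rare rises, 1305 moderate falls, and band medians of 0.08, 0.27 and 0.37 from abundant to rare. Upper-quartile factors gave 308 abundant rises and medians of -0.091, 0.096 and 0.198. DESeq2 called 3481 genes higher, of which 294 were abundant, 2018 moderate and 1169 rare. A minimum of 5 CPM in 3 libraries left 305 rare falls, since fewer rare genes were tested, with medians of 0.012 in moderate and 0.130 in rare genes. The cause of the other shifts was not tested.

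Leaving out 1 bulk at a time gave 3331 to 4759 calls, 2247 to 3008 lower and 1084 to 1751 higher. For abundant genes these were 611 to 756 and 83 to 164 with medians from -0.25 to -0.19, for moderate genes 1312 to 1793 and 646 to 1096 with medians from -0.05 to -0.01, and for rare genes 324 to 516 and 326 to 514 with medians from 0.06 to 0.11. Bulks of the same number did not deviate together (correlations of -0.082, 0.043 and 0.12), so the numbers do not pair them; with the replicate block 3165 genes were lower and 1772 higher, and osmotin 34 (adjusted p = 0.054), Eucgr.H04335 (0.053) and Eucgr.K02166 (0.12) lost their calls.

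A few genes that were not called changed sign. Without 1 bulk the log2 fold change of Eucgr.H01094 ran from -0.038 (without low KPY bulk 3) to 0.305, of Eucgr.J00025 from -0.265 to 0.013 (without low KPY bulk 2), of Eucgr.F03673 from -0.110 to 0.080 (without low KPY bulk 1), of Eucgr.H03401 from -0.279 to 0.268 (without high KPY bulk 3) and of Eucgr.J00089 from -0.020 (without low KPY bulk 1) to 1.93. Eucgr.J00025 went to 0.117 with library size only. Eucgr.F03673 went to 0.007 with RLE factors and DESeq2, 0.279 with library size only, 0.107 with upper-quartile factors and 0.022 with the 5 CPM minimum, and Eucgr.H03401 to 0.275, 0.100 and 0.018 in the last 3 and to 0.033 with the block. In rare genes log2 changes under 0.54 were not called in either direction. At their median count, counting error alone would give an SE of 0.076, against a median fitted SE of 0.34, so the spread between bulks exceeded what depth sets.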
